A study of Schizosaccharomyces pombe with 12 samples.

Results

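The 10 genes described here act in sterol synthesis and its control in the fission yeast Schizosaccharomyces pombe. They were taken by identifier from a table of 6986 genes, and all 10 passed the filter on low counts that 6189 genes passed. They are the regulator genes sre1 (SPBC19C2.09) and scp1 (SPBC3B9.15c), the enzyme genes hmg1 (SPCC162.09c), erg1 (SPBC713.12), erg11 (SPAC13A11.02c), erg25 (SPAC630.08c), erg31 (SPAC1687.16c), erg32 (SPBC27B12.03c) and erg5 (SPAC19A8.04), and hem13 (SPAC222.11), a gene of heme synthesis. Poly(A)+ RNA was sequenced from vegetative log phase cells, kept at 30 °C in the rich medium YES. The 12 libraries were 3 replicates each of the asp1-H397A ssu72-C13S aps1Δ strain (the triple mutant), the asp1-H397A strain, the ssu72-C13S strain and the wild type (WT). The labels give 1 strain per genotype and call the replicates separate experiments, so p-values measure the spread between these samples of 1 strain.

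Asp1 makes and breaks down inositol pyrophosphates, and the H397A change lies in its pyrophosphatase part. Aps1 is another enzyme that breaks down inositol pyrophosphates. Ssu72 is a protein phosphatase of the machinery that cleaves and polyadenylates RNA, and C13S changes the cysteine of its active site. Sre1 is the fission yeast sterol regulatory element binding protein (SREBP), a transcription factor held in the membrane of the endoplasmic reticulum together with Scp1, its sterol-sensing escort. When sterols or oxygen are scarce, Sre1 is cut and its free part enters the nucleus, where it raises genes of sterol and heme synthesis and its own gene. Sterol synthesis starts with the mevalonate steps, which include Hmg1, and ends with ergosterol, the main sterol of fungal membranes, by way of oxygen-consuming enzymes such as Erg1, Erg11, Erg25, Erg31, Erg32 and Erg5.

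The promoters of the members were searched for the sterol regulatory element, the sequence Sre1 binds. In 250 bases before to 50 after each annotated gene start (RefSeq, build ASM294v3), the longer sterol regulatory element was found in 0 of 5123 protein-coding promoters and its looser form in 15 (0.293%), with no member in either set. The shorter core TCANNCCA, chosen after that search, was found on either strand in 482 promoters (9.41%), 4 of them of members, and those 4 are shown. The sre1 promoter was the 1 promoter of 5123 with 3 or more matches (0.0195%). That cutoff equals the number of matches in sre1 and was not part of the planned search, so the share only describes. The sequences below are read 5′ to 3′ on the strand of the gene, with matches in capitals. They are sre1 at chrII:1691264-1691364 (plus strand), erg25 at chrI:361381-361418, erg31 at chrI:933997-934034 and erg32 at chrII:1325600-1325637 (all minus strand).
sre1: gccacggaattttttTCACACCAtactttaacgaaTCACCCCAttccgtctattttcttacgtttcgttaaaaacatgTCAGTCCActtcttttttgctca
erg25: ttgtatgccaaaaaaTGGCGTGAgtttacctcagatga
erg31: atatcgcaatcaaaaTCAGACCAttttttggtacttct
erg32: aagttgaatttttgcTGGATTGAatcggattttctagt
The matches of erg25 and erg32 lie on the strand opposite to the gene. Counted from the gene start, they begin at base −86 in erg25, −51 in erg31 and −158 in erg32, and at −115, −95 and −52 in sre1. A match describes letters only, and binding was not measured.

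Libraries held 23115806 to 29124916 counts, and levels below are counts scaled to library size (CPM) with edgeR's TMM factors. These factors were 0.847 to 0.948 in the triple mutant and 0.904 to 1.00 in asp1-H397A. In ssu72-C13S they were 1.08 to 1.09, and in WT 1.09 to 1.13. Statements below on overlap of CPM between genotypes refer to these scaled levels. Scaling to the library total alone changes several of them. The gene aps1, labelled as deleted in the triple mutant, stood at 37.5 to 41.2 CPM there, against 102 to 120 CPM in WT. These 758 to 958 counts a library do not show that aps1 is absent, and the part deleted is not given in the sources used here. Summed CPM of 7 meiosis and mating genes were 49.1 to 52.8 in the triple mutant, 82.9 to 109 in asp1-H397A, 43.2 to 45.7 in ssu72-C13S and 83.6 to 90.1 in WT, and their part in the results was not tested. Across 6169 genes, libraries differed in a trend of level with the adenine (A) content of the transcript, and asp1-H397A replicate 3 and triple mutant replicate 1 stood apart from their replicates in it. All members are low in A, between 21.2% in erg25 and 28.4% in scp1, against a median of 30.8%. For each 10 percentage points of A, the log2 fold change against WT fell by 0.59 in the triple mutant, 0.65 in asp1-H397A and 0.28 in ssu72-C13S. Values after removal of this trend are given beside the results whose calls they change, and what the trend comes from was not tested.

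Against WT, the 10 genes were called higher more often than lower in each mutant. In the triple mutant 5 were higher and 1 was lower, past an adjusted p of 0.05 (edgeR quasi-likelihood test, Benjamini-Hochberg over all genes tested). Of all genes tested, 51.9% were called there, 26.2% higher and 25.7% lower. In asp1-H397A 9 were higher and 0 lower, while 44.4% of all genes were called, 25.8% higher and 18.6% lower. In ssu72-C13S 6 were higher and 0 lower, while 54.7% of all genes were called, 25.5% higher and 29.1% lower. For both counts of 0, the unadjusted test and DESeq2 also gave 0. The median log2 fold change of the members was 0.26 in the triple mutant, 0.36 in asp1-H397A and 0.37 in ssu72-C13S, beside −0.01, −0.00 and −0.04 over all genes in those comparisons. All these comparisons share the WT libraries, and in bulk RNA a change in the number of cells with a transcript and one in its level per cell cannot be told apart. The count of 9 in asp1-H397A moved with the processing. It was 5 under upper-quartile scaling, 5 without asp1-H397A replicate 1, 6 with asp1-H397A and WT alone in the fit and 4 (scp1, erg1, erg31 and hem13) with the A content trend removed. With that trend removed the triple mutant had 3 members higher and 6 lower, and ssu72-C13S 6 higher and 2 lower. Over all genes that fit called 3932 in the triple mutant, 3159 in asp1-H397A and 4036 in ssu72-C13S. Without asp1-H397A replicate 3 and triple mutant replicate 1, the members called numbered 8 in the triple mutant (7 higher, 1 lower), 10 in asp1-H397A (all higher) and 6 in ssu72-C13S (all higher). More genes were called in general there, 4367 in the triple mutant, 4537 in asp1-H397A and 4507 in ssu72-C13S. As reported, those numbers were 3210, 2747 and 3384.

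**Figure D1:**
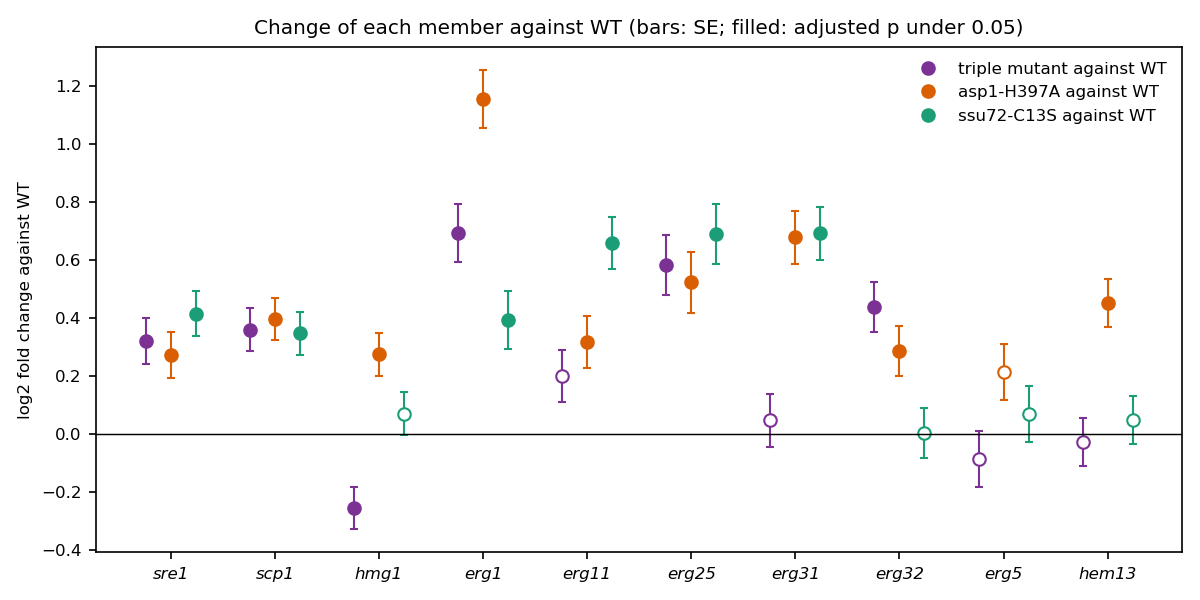
Log2 fold change of the 10 members against WT in the triple mutant, asp1-H397A and ssu72-C13S, with bars of 1 SE and filled points for values past an adjusted p of 0.05. The largest value is that of erg1 in asp1-H397A, 1.15, and hmg1 in the triple mutant is the 1 member called lower.

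The regulator genes sre1 and scp1 were moderately higher in all 3 mutants. The sre1 gene stood at 244, 289 and 277 CPM in the triple mutant, 271, 282 and 231 CPM in asp1-H397A, 284, 293 and 288 CPM in ssu72-C13S, and 209, 215 and 225 CPM in WT. With TMM scaling every mutant library lay above every WT library, the nearest being asp1-H397A replicate 3. By library total alone, sre1 was at 231, 244 and 243 CPM in the triple mutant and 250, 255 and 232 CPM in asp1-H397A. Both overlapped WT, at 235, 233 and 247 CPM, while ssu72-C13S stayed above it at 305, 316 and 313 CPM. The log2 fold change against WT was 0.32 in the triple mutant (SE 0.0786, adjusted p = 0.00385), 0.27 in asp1-H397A (SE 0.0786, adjusted p = 0.0125) and 0.42 in ssu72-C13S (SE 0.0785, adjusted p = 5.57e-04). In asp1-H397A the threshold was missed without WT replicate 1 (0.25, adjusted p = 0.0531), asp1-H397A replicate 1 (0.24, adjusted p = 0.109) or asp1-H397A replicate 2 (0.21, adjusted p = 0.0657). It was also missed under upper-quartile scaling (0.13). Once the A content trend was removed, sre1 was at 0.08 in the triple mutant (adjusted p = 0.0998), 0.02 in asp1-H397A (adjusted p = 0.778) and 0.25 in ssu72-C13S (adjusted p = 8.71e-05), so that only the last call was kept.

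Levels of scp1 were 151, 166 and 173 CPM in the triple mutant, 177, 177 and 149 CPM in asp1-H397A, 167, 163 and 156 CPM in ssu72-C13S, and 130, 130 and 121 CPM in WT. With TMM scaling the mutants overlapped each other and lay above WT in every library. By library total the triple mutant, at 143, 141 and 151 CPM, overlapped WT at 147, 142 and 133 CPM. Both single mutants stayed above WT, with 163, 160 and 150 CPM in asp1-H397A and 179, 176 and 170 CPM in ssu72-C13S. Relative to WT, the log2 fold change was 0.36 in the triple mutant (SE 0.0739, adjusted p = 0.00111), 0.40 in asp1-H397A (SE 0.0739, adjusted p = 7.57e-04) and 0.35 in ssu72-C13S (SE 0.0737, adjusted p = 0.00135). As reported, no pair of mutants differed in scp1 past the threshold. Without asp1-H397A replicate 3 and triple mutant replicate 1, asp1-H397A was higher than ssu72-C13S by 0.13 (adjusted p = 0.0135). All 3 rises were kept in every alternative run, none of which scaled by the library total alone. With the A content trend removed they were 0.22 in the triple mutant, 0.19 in asp1-H397A and 0.24 in ssu72-C13S.

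The hmg1 gene encodes HMG-CoA reductase, the regulated enzyme of the mevalonate steps, and was the member lower than WT in the triple mutant. It stood at 170, 192 and 197 CPM in the triple mutant, 277, 289 and 242 CPM in asp1-H397A, 234, 230 and 236 CPM in ssu72-C13S, and 214, 221 and 232 CPM in WT. The triple mutant lay below all other libraries and asp1-H397A above them, while ssu72-C13S and WT overlapped. By library total, asp1-H397A was at 256, 261 and 243 CPM and overlapped WT at 241, 240 and 254 CPM. Set against WT, the log2 fold change was −0.26 in the triple mutant (SE 0.0731, adjusted p = 0.00989), 0.27 in asp1-H397A (SE 0.0728, adjusted p = 0.00771) and 0.07 in ssu72-C13S (SE 0.0728, adjusted p = 0.430). Without triple mutant replicate 2 the first was −0.26 with an adjusted p of 0.0616, and without asp1-H397A replicate 1 the second was 0.25 with an adjusted p of 0.0816. The second was also not called under upper-quartile scaling (0.13, adjusted p = 0.113) or with asp1-H397A and WT alone in the fit (0.26, adjusted p = 0.0534). After removal of the A content trend hmg1 was at −0.58 in the triple mutant (past the threshold) and at −0.03 in asp1-H397A (adjusted p = 0.648). In ssu72-C13S it was at −0.10 (adjusted p = 0.0643), a turned sign but no call.

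**Figure D2:**
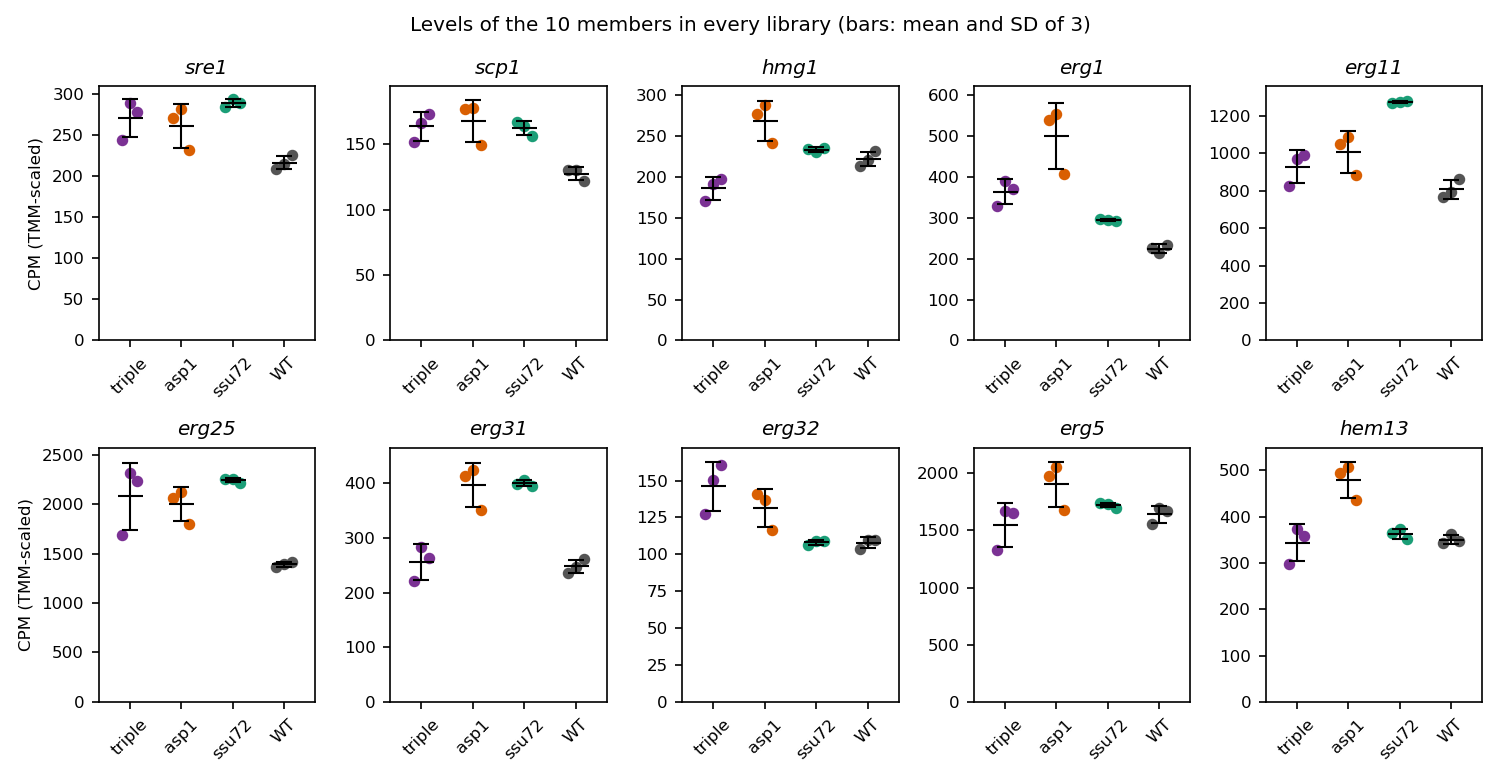
Levels of the 10 members in CPM, 1 panel per gene, in the triple mutant, asp1-H397A, ssu72-C13S and WT. Points are libraries and lines are means with the SD of 3 replicates. The triple mutant lies lowest for hmg1, asp1-H397A highest for erg1 and ssu72-C13S highest for erg11.

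Among the enzymes after squalene, erg1 showed the largest change of any member. It encodes squalene epoxidase, which uses oxygen to start the sterol-specific steps. Levels were 330, 390 and 371 CPM in the triple mutant, 539, 553 and 408 CPM in asp1-H397A, 297, 296 and 293 CPM in ssu72-C13S, and 227, 214 and 234 CPM in WT. The 4 genotypes did not overlap, and asp1-H397A stood highest. By library total the triple mutant, at 313, 331 and 324 CPM, overlapped ssu72-C13S at 320, 319 and 319 CPM. The log2 fold change against WT was 0.69 in the triple mutant (SE 0.0998, adjusted p = 6.08e-05), 1.15 in asp1-H397A (SE 0.10, adjusted p = 1.56e-06) and 0.39 in ssu72-C13S (SE 0.0995, adjusted p = 0.00446). Only 5.11% of genes changed as much or more in asp1-H397A. Free of the A content trend, erg1 was at 0.11 in the triple mutant (adjusted p = 0.0467), 0.71 in asp1-H397A and 0.23 in ssu72-C13S, past the threshold in all 3.

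The order differed for erg11, which encodes lanosterol demethylase, a cytochrome P450 and the target of azole antifungals. It stood at 827, 967 and 991 CPM in the triple mutant, 1050, 1088 and 881 CPM in asp1-H397A, 1267, 1275 and 1280 CPM in ssu72-C13S, and 767, 791 and 863 CPM in WT. Here ssu72-C13S lay above every other library, and with TMM scaling the triple mutant overlapped both asp1-H397A and WT. By library total the triple mutant, at 784, 818 and 867 CPM, lay below asp1-H397A at 970, 984 and 885 CPM. Both overlapped WT at 864, 859 and 947 CPM. Relative to WT, the log2 fold change was 0.20 in the triple mutant (SE 0.0894, adjusted p = 0.0742), 0.32 in asp1-H397A (SE 0.0894, adjusted p = 0.0108) and 0.66 in ssu72-C13S (SE 0.0897, adjusted p = 3.68e-05). Without triple mutant replicate 1 the first became 0.28 (adjusted p = 0.0130). The second was not called without asp1-H397A replicate 1 (0.28, adjusted p = 0.0980) or replicate 2 (0.26, adjusted p = 0.0541), under upper-quartile scaling (0.17) or with the A content trend removed (−0.01). In the triple mutant that removal gave −0.18, past the threshold in the opposite direction, and in ssu72-C13S 0.48, a kept call. Within a library the ratio of erg1 to erg11 counts does not depend on scaling. It averaged 0.392 ± 0.0161 in the triple mutant, 0.495 ± 0.0283 in asp1-H397A, 0.232 ± 0.00271 in ssu72-C13S and 0.279 ± 0.0145 in WT (SD, n = 3 each), with no overlap between genotypes.

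The erg25 gene, for the oxidase that removes methyl groups from sterols, was higher in all 3 mutants. Levels were 1691, 2316 and 2234 CPM in the triple mutant, 2062, 2125 and 1803 CPM in asp1-H397A, 2258, 2255 and 2215 CPM in ssu72-C13S, and 1360, 1395 and 1415 CPM in WT. All mutant libraries lay above WT, and triple mutant replicate 1 was the lowest of them. Set against WT, the log2 fold change was 0.58 in the triple mutant (SE 0.104, adjusted p = 3.77e-04), 0.52 in asp1-H397A (SE 0.104, adjusted p = 0.00120) and 0.69 in ssu72-C13S (SE 0.104, adjusted p = 8.95e-05). As reported, no pair of mutants differed in it past the threshold. Only 0.308% of genes have a lower A content than erg25, and removal of that trend gave −0.14 in the triple mutant (adjusted p = 0.0233), 0.02 in asp1-H397A (adjusted p = 0.772) and 0.55 in ssu72-C13S. The call in ssu72-C13S was kept, that in asp1-H397A was lost and that in the triple mutant turned to the opposite direction. The same removal set all mutants apart, with log2 differences of −0.69 for the triple mutant against ssu72-C13S (adjusted p = 1.29e-08), −0.16 for the triple mutant against asp1-H397A (adjusted p = 0.0153) and −0.53 for asp1-H397A against ssu72-C13S (adjusted p = 3.02e-07). Upper-quartile scaling gave −0.33 for the last of these (adjusted p = 0.00818).

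The sterol desaturase genes erg31 and erg32 encode related enzymes of the same step and moved differently. Their coding sequences, 903 and 990 nucleotides long, are 64.4% identical with no identical run over 15 nucleotides (ASM294v3), and their predicted proteins are 56.4% identical. The erg31 gene stood at 221, 285 and 263 CPM in the triple mutant, 414, 425 and 351 CPM in asp1-H397A, 398, 407 and 396 CPM in ssu72-C13S, and 236, 246 and 261 CPM in WT. With TMM scaling both single mutants lay above every WT and triple mutant library, and the triple mutant overlapped WT. By library total the triple mutant, at 209, 241 and 230 CPM, lay below WT at 266, 268 and 287 CPM. The log2 fold change against WT was 0.05 in the triple mutant (SE 0.0914, adjusted p = 0.690), 0.68 in asp1-H397A (SE 0.0915, adjusted p = 6.22e-05) and 0.69 in ssu72-C13S (SE 0.0915, adjusted p = 2.91e-05). Once the A content trend was removed the single mutants kept their calls at 0.35 in asp1-H397A and 0.51 in ssu72-C13S, and the triple mutant was lower than WT by −0.33 (adjusted p = 8.32e-06).

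Levels of erg32 were 128, 150 and 160 CPM in the triple mutant, 141, 137 and 117 CPM in asp1-H397A, 106, 109 and 109 CPM in ssu72-C13S, and 104, 110 and 110 CPM in WT. The triple mutant and asp1-H397A lay above WT and overlapped each other, and ssu72-C13S overlapped WT. By library total asp1-H397A, at 130, 124 and 117 CPM, overlapped WT at 117, 120 and 121 CPM. Relative to WT, the log2 fold change was 0.44 in the triple mutant (SE 0.0851, adjusted p = 7.32e-04), 0.29 in asp1-H397A (SE 0.0850, adjusted p = 0.0145) and 0.00 in ssu72-C13S (SE 0.0850, adjusted p = 0.976). In asp1-H397A the threshold was missed without WT replicate 1 (0.26, adjusted p = 0.0609), without asp1-H397A replicate 1 (0.23, adjusted p = 0.125) or replicate 2 (0.26, adjusted p = 0.0571), and under upper-quartile scaling (0.14). After removal of the A content trend erg32 was at 0.12 in the triple mutant (adjusted p = 0.0238), −0.01 in asp1-H397A (adjusted p = 0.911) and −0.17 in ssu72-C13S (adjusted p = 0.00370). The annotation places mis19 on the opposite strand across an end of erg32, with 567 to 1131 counts in these libraries, and how counting treated strands is not given in the sources used here. Antisense non-coding RNAs, not analysed here, are also annotated opposite sre1, scp1, hmg1, erg1, erg32, erg11 and erg5.

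The ratio of erg31 to erg32 counts within a library, which does not depend on scaling, separated the 4 genotypes. It was 1.73, 1.89 and 1.64 in the triple mutant, 2.94, 3.10 and 3.01 in asp1-H397A, 3.74, 3.73 and 3.64 in ssu72-C13S, and 2.28, 2.24 and 2.38 in WT. The triple mutant lay below WT in every library and both single mutants above it. The A contents of erg31 and erg32 are close, at 24.7% and 25.5%. The ratios are given as a description without a test. Between a pair of genotypes, an exact two-sided permutation test of 3 libraries against 3 cannot give a p below 0.1.

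**Figure D3:**
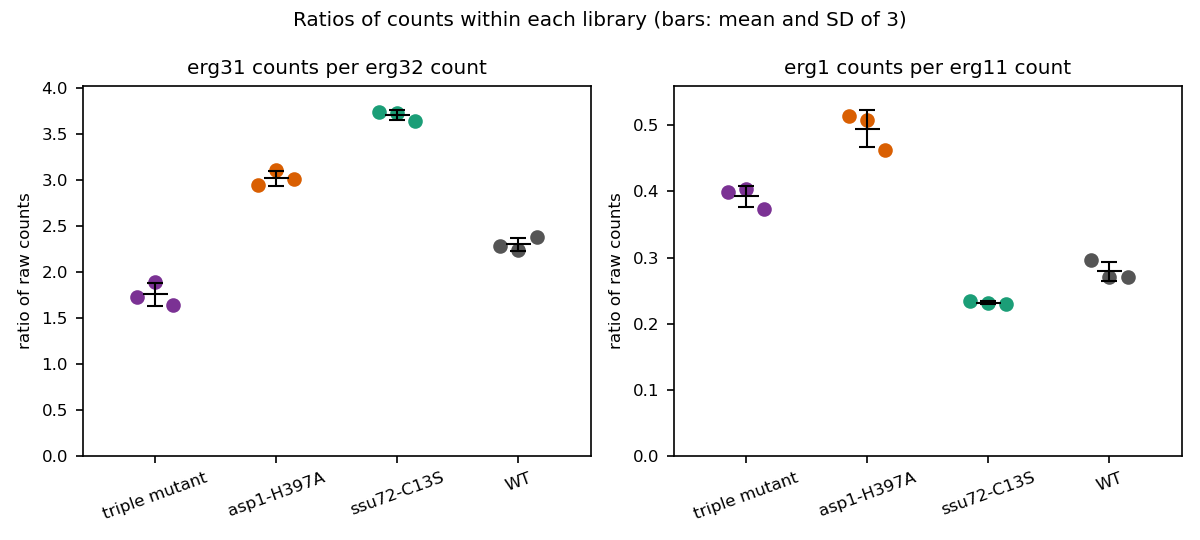
Ratios of counts within a library for erg31 to erg32 and for erg1 to erg11, in the triple mutant, asp1-H397A, ssu72-C13S and WT. Points are libraries, and bars give the mean and SD of 3. The erg31 to erg32 ratio is lowest in the triple mutant and highest in ssu72-C13S, and the erg1 to erg11 ratio is highest in asp1-H397A.

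The side chain desaturase gene erg5 was not called against WT in any mutant. It stood at 1324, 1668 and 1649 CPM in the triple mutant, 1975, 2054 and 1679 CPM in asp1-H397A, 1736, 1728 and 1699 CPM in ssu72-C13S, and 1558, 1692 and 1673 CPM in WT. With TMM scaling the triple mutant and asp1-H397A overlapped WT, and ssu72-C13S lay just above it. By library total the triple mutant, at 1256, 1412 and 1443 CPM, lay below WT at 1754, 1839 and 1836 CPM. Set against WT, the log2 fold change was −0.08 in the triple mutant (SE 0.0960, adjusted p = 0.483), 0.21 in asp1-H397A (SE 0.0960, adjusted p = 0.0864) and 0.07 in ssu72-C13S (SE 0.0960, adjusted p = 0.569). Without asp1-H397A replicate 3 the second was called at 0.30 (adjusted p = 0.0104). After removal of the A content trend the triple mutant was called lower at −0.33 (adjusted p = 2.81e-06) and ssu72-C13S lower at −0.10 (adjusted p = 0.0388).

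The heme gene hem13 encodes coproporphyrinogen III oxidase, an oxygen-dependent enzyme, and was higher in asp1-H397A. Levels were 299, 374 and 359 CPM in the triple mutant, 495, 506 and 435 CPM in asp1-H397A, 364, 373 and 351 CPM in ssu72-C13S, and 343, 362 and 346 CPM in WT. With TMM scaling only asp1-H397A stood clear of WT. By library total the triple mutant, at 283, 316 and 314 CPM, lay below WT at 386, 393 and 380 CPM. The log2 fold change was −0.03 in the triple mutant (SE 0.0825, adjusted p = 0.806), 0.45 in asp1-H397A (SE 0.0825, adjusted p = 6.67e-04) and 0.05 in ssu72-C13S (SE 0.0823, adjusted p = 0.633). Once the A content trend was removed the call in asp1-H397A was kept at 0.24, and the triple mutant was called lower at −0.17 (adjusted p = 0.00164).

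Levels per length were compared within WT. By CPM per kilobase of spliced transcript, erg5 (926) and erg25 (827) were highest, and erg11 (323), hem13 (241), erg31 (161) and erg1 (102) followed. Lower levels per length were those of erg32 (84.8), sre1 (65.6), hmg1 (52.0) and scp1 (34.6). Together the members took 0.557% ± 0.0401 of all counts in the triple mutant, 0.669% ± 0.0320 in asp1-H397A, 0.766% ± 0.00270 in ssu72-C13S and 0.588% ± 0.0115 in WT (SD, n = 3 each). That share was above WT in every library of both single mutants, without any scaling by TMM. It mostly follows erg5, erg25 and erg11, at 1754, 1532 and 864 CPM by library total in WT replicate 1. In the triple mutant the share ran from 0.511% to 0.584%, overlapped WT (0.580% to 0.601%) and had a lower mean. With TMM scaling 5 members were called higher there and 1 lower.

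The triple mutant was next set against each single mutant. Against asp1-H397A it had 5 members lower (hmg1, erg1, erg31, erg5 and hem13) and 0 higher, also 0 by the unadjusted test and by DESeq2. Of all genes, 36.8% were called in that comparison, 15.7% higher and 21.1% lower. The log2 differences were −0.53 for hmg1, −0.46 for erg1, −0.63 for erg31, −0.30 for erg5 and −0.48 for hem13. The erg5 threshold was missed without asp1-H397A replicate 1 (−0.24, adjusted p = 0.203), asp1-H397A replicate 2 (−0.24, adjusted p = 0.101), triple mutant replicate 1 (−0.20, adjusted p = 0.0833) or triple mutant replicate 2 (−0.34, adjusted p = 0.0589). Without triple mutant replicate 1, erg32 was called higher (0.24, adjusted p = 0.0238), and without asp1-H397A replicate 3, erg11 was called lower (−0.20, adjusted p = 0.0467). As a straight line over all genes, the A content trend hardly differs between these genotypes, at 0.07 in log2 per 10 points. Its removal, which followed a curve, moved some members by more, such as erg25 from 0.06 to −0.16. That removal gave −0.56 for hmg1, −0.60 for erg1, −0.68 for erg31, −0.28 for erg5 and −0.42 for hem13, all past the threshold. It added calls for erg11 (−0.17), erg25 (−0.16) and erg32 (0.13). Under upper-quartile scaling 1 member was higher (erg32 at 0.22) and 4 were lower.

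Against ssu72-C13S the triple mutant had 2 members higher (erg1 at 0.30 and erg32 at 0.43) and 3 lower (hmg1 at −0.33, erg31 at −0.64 and erg11 at −0.46). Of all genes, 56.3% were called, 28.8% higher and 27.5% lower, and the counts of members lie near these shares. Missing 1 library ended the erg1 call for ssu72-C13S replicate 2 (0.30, adjusted p = 0.0504), ssu72-C13S replicate 3 (0.30, adjusted p = 0.0542), triple mutant replicate 2 (0.23, adjusted p = 0.143) and triple mutant replicate 3 (0.29, adjusted p = 0.0510). Free of the A content trend, erg1 was lower by −0.13 (adjusted p = 0.0191). That removal left 1 member higher and 8 lower, with calls gained for sre1 (−0.17, adjusted p = 0.00219), erg25 (−0.69), erg5 (−0.23, adjusted p = 6.83e-05) and hem13 (−0.12, adjusted p = 0.0164). Under upper-quartile scaling 1 member was higher and 5 were lower.

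Between the single mutants, asp1-H397A had 4 members higher than ssu72-C13S (erg1 at 0.76, hem13 at 0.40, erg32 at 0.28 and hmg1 at 0.20) and 1 lower (erg11 at −0.34). Of all genes, 54% were called, 29.7% higher and 24.3% lower. As reported, erg31 did not differ past the threshold (−0.01, SE 0.0909, adjusted p = 0.914). Removal of the A content trend gave 3 members higher and 4 lower. It called sre1 (−0.24, adjusted p = 1.46e-04), erg25 (−0.53) and erg31 (−0.16, adjusted p = 0.00334) lower in asp1-H397A, and hmg1 was no longer called (0.08, adjusted p = 0.164). The hmg1 call was lost in 5 fits without 1 library, those without asp1-H397A replicate 1 (0.15, adjusted p = 0.258), asp1-H397A replicate 2 (0.15, adjusted p = 0.127), ssu72-C13S replicate 1 (0.21, adjusted p = 0.0694), replicate 2 (0.19, adjusted p = 0.0854) and replicate 3 (0.21, adjusted p = 0.0623). The erg32 difference missed the threshold without asp1-H397A replicate 1 (0.20, adjusted p = 0.156), and erg5 was called higher without asp1-H397A replicate 3 (0.23, adjusted p = 0.0391). Under upper-quartile scaling the split was 2 higher and 3 lower, with the median of all genes at −0.14.

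The triple mutant was also compared with the sum of both single mutants on the log2 scale. This difference, called the departure from additivity, contains the effect of the aps1 deletion, which neither single mutant carries. It also contains, with the opposite sign, any change against WT that all mutants share. It was negative past the threshold for 9 of 10 members, and for 8 with DESeq2, RLE scaling or upper-quartile scaling. The departure was positive for 0, also 0 by the unadjusted test and by DESeq2. Of all genes, 41.9% were called, 20.1% positive and 21.8% negative, and the median was −0.56 over the members beside 0.04 over all genes. The largest departure was that of erg31, where the single mutants sum to 1.37, the triple mutant stood at 0.05 and the departure was −1.32 (SE 0.129, adjusted p = 4.65e-06). For erg1 the sum was 1.55 and the departure −0.85 (SE 0.141, adjusted p = 3.28e-04). For erg11 it was −0.78 (SE 0.126, adjusted p = 3.07e-04).

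The remaining departures were −0.63 for erg25, −0.60 for hmg1, −0.53 for hem13, −0.38 for scp1 and −0.37 for both sre1 and erg5. In the absence of asp1-H397A replicate 1, those of sre1 (−0.34, adjusted p = 0.0891) and scp1 (−0.34, adjusted p = 0.0612) missed the threshold. That of erg5 was lost in 10 of the 12 fits without 1 library, with values between −0.44 and −0.27 and adjusted p between 0.0556 and 0.163. Under upper-quartile scaling the erg5 departure also missed the threshold (−0.31, adjusted p = 0.0501). The erg32 departure was 0.15 (SE 0.120, adjusted p = 0.348). With the A content trend removed, all 9 departures stayed negative and called. They were −1.20 for erg31, −0.83 for erg1, −0.71 for erg25, −0.65 for erg11, −0.45 for hmg1 and −0.36 for hem13. Those of scp1 (−0.22), erg5 (−0.19) and sre1 (−0.18) moved by over 1.5 times, and erg32 was called positive at 0.30 (adjusted p = 9.21e-04).

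**Figure D4:**
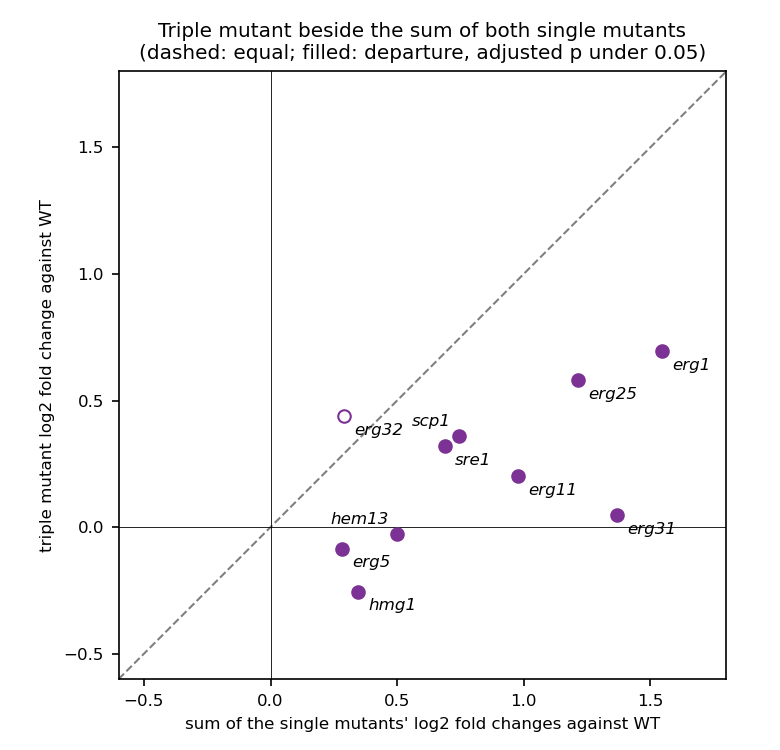
Log2 fold change against WT in the triple mutant (vertical axis) against the sum of the asp1-H397A and ssu72-C13S changes (horizontal axis) for the 10 members. The line marks equal values, 9 members lie below it with a called departure, and erg32 lies above it without one. Both axes share the WT libraries.

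The other genes of the pathway were counted from lists chosen with earlier results known, which hold 39 genes beside the members. Of these, the triple mutant had 15 higher and 5 lower, asp1-H397A 19 higher and 3 lower, and ssu72-C13S 18 higher and 3 lower. The shares of all genes called were 26.2% higher and 25.7% lower in the triple mutant, 25.8% and 18.6% in asp1-H397A, and 25.5% and 29.1% in ssu72-C13S, and the list counts are descriptions beside them. With the A content trend removed there were 10 higher and 14 lower in the triple mutant, 11 and 10 in asp1-H397A, and 19 and 6 in ssu72-C13S. Under upper-quartile scaling the counts were 11 and 8 in the triple mutant, 11 and 7 in asp1-H397A, and 20 and 3 in ssu72-C13S.

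Genes of the sterol steps, members included, were higher in 9 of 15 in the triple mutant, 12 of 15 in asp1-H397A and 10 of 15 in ssu72-C13S, and lower in 0 in each, also 0 by the unadjusted test and by DESeq2. Over all genes the shares called were 26.2% higher and 25.7% lower in the triple mutant and 25.8% and 18.6% in asp1-H397A. They were 25.5% and 29.1% in ssu72-C13S. With the A content trend removed, 7 were higher and 6 lower in the triple mutant, 7 and 0 in asp1-H397A, and 10 and 3 in ssu72-C13S. Upper-quartile scaling gave 8 and 1 in the triple mutant, 7 and 0 in asp1-H397A, and 10 and 0 in ssu72-C13S. The reductase gene erg24 rose by 0.68 in the triple mutant (adjusted p = 2.40e-05) and by 0.97 in ssu72-C13S (adjusted p = 1.01e-06), and erg28, for a scaffold of the sterol enzymes, rose by 0.56 in asp1-H397A (adjusted p = 1.23e-05).

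Of the earlier mevalonate steps, 1 of 9 was higher and 2 lower in the triple mutant, where 51.9% of all genes were called. In asp1-H397A it was 3 higher and 1 lower, and in ssu72-C13S 0 either way, also by the unadjusted test and DESeq2, where 44.4% and 54.7% of all genes were called. These splits turned with the processing. After the A content trend was removed they were 1 higher and 5 lower in the triple mutant, 1 and 3 in asp1-H397A, and 0 and 1 in ssu72-C13S. Upper-quartile scaling gave 0 and 3 in the triple mutant, 1 and 3 in asp1-H397A, and 1 and 0 in ssu72-C13S. Without asp1-H397A replicate 3 and triple mutant replicate 1 they were 2 and 3 in the triple mutant, 5 and 3 in asp1-H397A, and 1 and 2 in ssu72-C13S. The first gene of that route, erg10, was higher by 0.25 in the triple mutant (adjusted p = 0.0305), a call that 6 alternatives ended, among them those without WT replicate 1, WT replicate 2, triple mutant replicate 2 or triple mutant replicate 3. With the A content trend removed it was at −0.11. The gene mvd1, for mevalonate pyrophosphate decarboxylase, rose by 0.38 in asp1-H397A. The prenyltransferase-related gene spo9 fell by 0.34 in the triple mutant, a call lost without triple mutant replicate 3, and by 0.38 in asp1-H397A.

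Genes of SREBP processing and control, sre1 and scp1 included, were higher in 8 of 15 and lower in 2 in the triple mutant. In asp1-H397A 9 were higher and 2 lower, and ssu72-C13S had 9 higher and 0 lower, the last also 0 by the unadjusted test and DESeq2. The shares over all genes were 26.2% higher and 25.7% lower in the triple mutant and 25.8% and 18.6% in asp1-H397A. In ssu72-C13S they were 25.5% and 29.1%. With the A content trend removed, 3 were higher and 5 lower in the triple mutant, against 3 and 4 in asp1-H397A and 10 and 0 in ssu72-C13S. Under upper-quartile scaling it was 6 and 3 in the triple mutant, 4 and 3 in asp1-H397A, and 10 and 0 in ssu72-C13S. The gene dap1, whose product binds heme and acts with cytochrome P450 sterol enzymes, stood at 37.1 ± 7.81 CPM in the triple mutant, 43.1 ± 10.4 CPM in asp1-H397A and 78.3 ± 1.43 CPM in WT (SD, n = 3 each). It fell by 1.08 in the triple mutant (adjusted p = 5.60e-05) and by 0.86 in asp1-H397A (adjusted p = 5.09e-04) on the log2 scale, in every alternative run. The paralog sre2 rose by 0.54 in asp1-H397A, rbd2, for a rhomboid protease that takes part in Sre1 cleavage, by 0.67 in ssu72-C13S, and ins1, the fission yeast INSIG gene, by 0.41 in the triple mutant. The ins1 call was lost with the A content trend removed (0.11, adjusted p = 0.0857).

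In heme synthesis, 2 of 7 genes were higher and 1 lower in the triple mutant. In asp1-H397A 3 were higher and 0 lower, and ssu72-C13S had 2 higher and 3 lower. The count of 0 was also 0 by the unadjusted test and DESeq2. The higher counts, out of 7, lie near the share of all genes called higher in the triple mutant (26.2%) and ssu72-C13S (25.5%). In asp1-H397A that share was 25.8%. The shares of all genes called lower were 25.7% in the triple mutant, 18.6% in asp1-H397A and 29.1% in ssu72-C13S. With the A content trend removed there were 2 higher and 3 lower in the triple mutant, 3 and 2 in asp1-H397A, and 2 and 4 in ssu72-C13S. Upper-quartile scaling gave 2 and 1 in the triple mutant, 3 and 1 in asp1-H397A, and 2 and 3 in ssu72-C13S. The first enzyme gene, hem1 (5-aminolevulinate synthase), stood at 672 ± 74.6 CPM in the triple mutant, 561 ± 85.9 CPM in asp1-H397A and 306 ± 4.54 CPM in WT (SD, n = 3 each). It rose by 1.13 in the triple mutant (adjusted p = 9.27e-07) and 0.87 in asp1-H397A (adjusted p = 1.91e-05). The uroporphyrinogen decarboxylase gene hem12 fell by 0.59 in the triple mutant, the protoporphyrinogen oxidase gene hem14 fell by 0.77 in ssu72-C13S, and hem2 rose by 0.38 in ssu72-C13S.

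Of 3 genes tested for sterol and lipid esterification, 1 was lower and 0 higher in the triple mutant. By contrast 1 was higher in asp1-H397A and 3 in ssu72-C13S with 0 lower in either, and the counts of 0 were also 0 by the unadjusted test and DESeq2. Of all genes, 26.2% were called higher and 25.7% lower in the triple mutant, 25.8% and 18.6% in asp1-H397A, and 25.5% and 29.1% in ssu72-C13S. With the A content trend removed, asp1-H397A had 1 higher and 1 lower. Without asp1-H397A replicate 3 and triple mutant replicate 1, the triple mutant had 2 lower and asp1-H397A 2 higher. The sterol acyltransferase gene are1 rose by 0.65 in asp1-H397A (adjusted p = 1.34e-04) and by 0.98 in ssu72-C13S (adjusted p = 1.83e-06). Its relative are2 fell by 0.63 in the triple mutant (adjusted p = 8.50e-05).

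**Figure D5:**
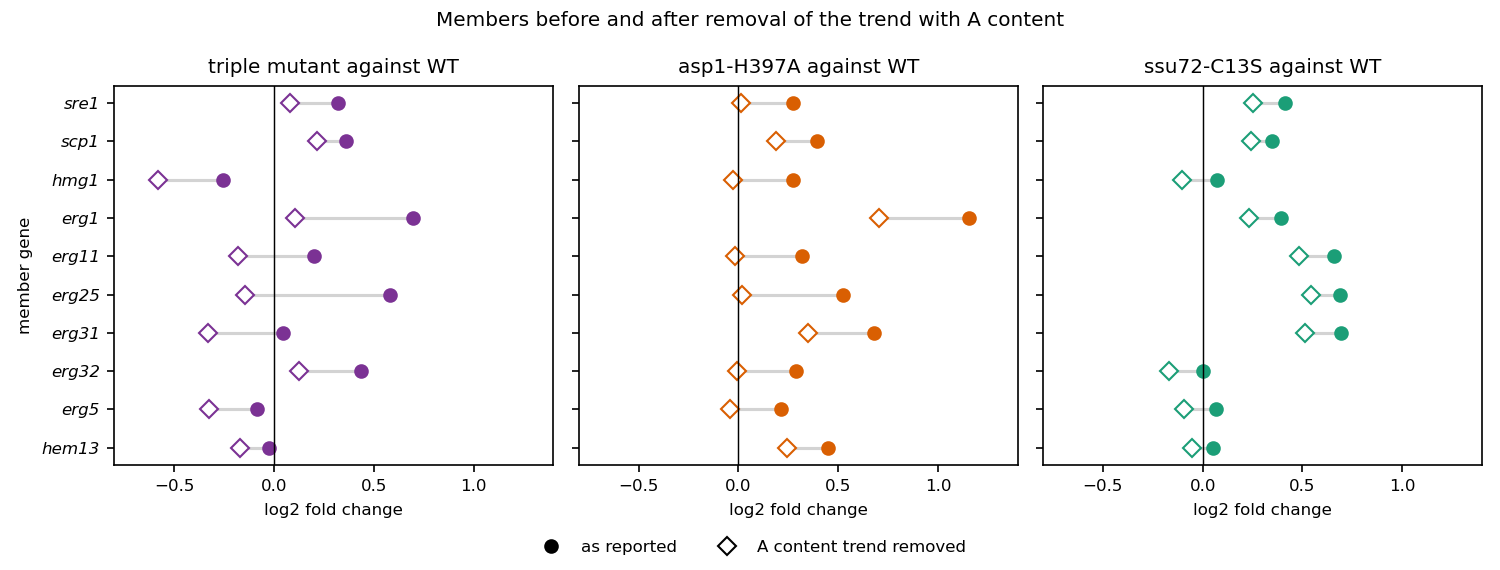
Log2 fold change of the 10 members against WT in the triple mutant, asp1-H397A and ssu72-C13S, as reported (filled) and with the trend on the A content of transcripts removed (open). In all 3 panels the open points lie to the left of the filled ones, and in asp1-H397A only scp1, erg1, erg31 and hem13 stay called.

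The pattern of sre1 over the 12 libraries was compared with that of every gene tested by the root mean square difference in log2 CPM, each gene centred on its own mean. The most alike were SPBC32F12.12c (0.0470), rib4 (0.0503) and aly3 (0.0513), beside a median of 0.327 over all genes. Among the members scp1 was nearest, at 0.0911 and rank 90, followed by erg25 (0.125), erg11 (0.133), erg5 (0.180), erg32 (0.206), hem13 (0.236), hmg1 (0.246) and erg31 (0.265). The erg1 gene, at 0.366, was less like sre1 than the median gene. Genes with small changes score low by this measure whatever their direction.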

How the data were processed

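The authors deposited 1 table of raw counts per gene with a column for each of the 12 libraries. Per the labels' protocols, RNA was purified with hot phenol and poly(A)+ libraries were made with a stranded kit and sequenced as paired ends. Per the submitters' processing notes, the tools included HISAT2 2.1.0, SAMtools, HTSeq 0.10.0 and DESeq2, with build ASM294v2. The annotation and strand setting of the counting are not given in the sources used here. Of 6987 rows, 1 repeated an identifier and held 0 counts, and was dropped. Identifiers were matched to RefSeq ASM294v3, 6833 by locus tag and 13 by synonym.

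Genes were kept with filterByExpr in edgeR 4.0.16 (minimum count 10, R 4.3.3), and TMM factors ran from 0.847 to 1.13. A single fit with a term for genotype took in all 12 libraries. The quasi-likelihood test of edgeR (legacy option) was applied to each contrast, p-values were adjusted by Benjamini-Hochberg over 6189 genes, and the threshold was 0.05. A count of 3, the limit that a count of 0 allows, equals 0.103 to 0.130 CPM, which covers counting error only. The chi-square per gene between replicates of a genotype ran from 3.17 to 53.9, so none agreed within sampling noise and each was kept as 1 sample. The functions were tested on simulated data.

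The alternatives tried were DESeq2 1.42.0, scaling by RLE or upper quartile, other filters, fits of the compared genotypes alone, a replicate block, robust empirical Bayes, leaving out libraries, and removal of the A content trend (a natural spline with 5 degrees of freedom of each library's log2 CPM deviations, used as offsets). The members and the lists were chosen with earlier results of these data known. All members are named, and of each list and comparison with WT the non-members past the threshold with the largest rise and fall. Of the esterification and transport list, ncr1 was not analysed here.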

Additional observations from a re-analysis of the deposited data

Results flagged for a closer look

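The change in the triple mutant differed from the sum of the changes in both single mutants for 9 members, by the test of that difference (edgeR quasi-likelihood test, Benjamini-Hochberg adjusted). The departures on the log2 scale were −0.37 for sre1 (adjusted p = 0.0170), −0.38 for scp1 (adjusted p = 0.00932), −0.60 for hmg1 (adjusted p = 4.45e-04), −0.85 for erg1 (adjusted p = 3.28e-04) and −0.63 for erg25 (adjusted p = 0.00371). They were −1.32 for erg31 (adjusted p = 4.65e-06), −0.78 for erg11 (adjusted p = 3.07e-04), −0.37 for erg5 (adjusted p = 0.0435) and −0.53 for hem13 (adjusted p = 0.00269). Of all genes, 41.9% were called in that test, 20.1% positive and 21.8% negative. The erg5 departure was not called in 13 of 21 alternatives, and those of sre1 and scp1 were not called in 1 each. The triple mutant is also labelled as deleted for aps1, of which counts remained, and the effect of that deletion and an interaction of the single mutations cannot be told apart. All terms share the WT libraries.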

How the results depend on the processing

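Of 1180 member values under alternatives, 1039 kept direction and call, 59 lost and 32 gained a call, and 50 changed sign, 8 of these past the threshold before or after. Without 1 library each, the members called numbered 6 for ssu72-C13S, 5 to 10 for asp1-H397A and 5 to 7 for the triple mutant against WT. The triple mutant had 4 to 5 against ssu72-C13S and 4 to 6 against asp1-H397A, with 3 to 6 for asp1-H397A against ssu72-C13S and 6 to 9 for the departure. In asp1-H397A against WT 5 were called under upper-quartile scaling, where the median of all genes was −0.15, and 4 with the A content trend removed. That removal gave 9 for the triple mutant against ssu72-C13S and 8 against asp1-H397A, also 8 with the replicate block. Over all genes it called 4250 against ssu72-C13S and 3151 against asp1-H397A, the latter 3077 with the replicate block.

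The replicate block alone left the counts at 6, 9 and 6 for ssu72-C13S, asp1-H397A and the triple mutant against WT, at 5 in each comparison between mutants and at 9 for the departure. Libraries of the same number did not deviate together (correlations of −0.43 to 0.32 over 18 pairs, against −0.50 to 0.64 over 36 others), so the numbers were not taken as pairs.

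Signs turned with the A content trend removed as follows, and the cause was not tested. Against WT the triple mutant was at −0.14 for erg25, −0.33 for erg31 and −0.18 for erg11. In asp1-H397A hmg1 was at −0.028, erg32 at −0.0066, erg11 at −0.014 and erg5 at −0.043. In ssu72-C13S hmg1 was at −0.10, erg32 at −0.17, erg5 at −0.096 and hem13 at −0.054. The triple mutant was at −0.027 for scp1 and −0.13 for erg1 against ssu72-C13S, and at 0.029 for scp1 and −0.16 for erg25 against asp1-H397A (0.028 and −0.16 with the replicate block). In asp1-H397A against ssu72-C13S scp1 was at −0.055.

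Under upper-quartile scaling the triple mutant was at −0.027 for erg31 against WT, and for scp1 at −0.080 against ssu72-C13S and 0.036 against asp1-H397A. In asp1-H397A against ssu72-C13S that scaling put scp1 at −0.12 and erg5 at −0.020. A mean count of at least 50 put erg32 at −2.0e-04 in ssu72-C13S against WT and scp1 at −0.011 in the triple mutant against ssu72-C13S, which was −0.034 with those genotypes alone.

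With 1 or both of the libraries that stand apart, or any other single library, left out, values that crossed 0 had these ranges. In the triple mutant against WT they were −0.13 to 0.016 for erg5, −0.076 to 0.065 for hem13 and −0.019 to 0.15 for erg31, and in ssu72-C13S against WT −0.025 to 0.018 for erg32. The triple mutant ranged from −0.030 to 0.066 for scp1, −0.20 to 0.022 for erg25 and −0.15 to 0.016 for hem13 against ssu72-C13S. Against asp1-H397A it ranged from −0.12 to 0.033 for scp1, −0.034 to 0.12 for sre1 and −0.013 to 0.19 for erg25. In asp1-H397A against ssu72-C13S the ranges were −0.024 to 0.13 for scp1 and −0.078 to 0.070 for erg31.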
